A study of Danio rerio with 2 samples.

Results

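The regions described here were open-chromatin regions at the start of a single gene with no CpG island in them, in hearts of heart of stone (hos) zebrafish mutants and of their siblings. A region was taken when the deposited annotation counted 0 CpG islands in it and placed exactly 1 gene start within 1000 bp. These 10157 regions, called island-free promoters, were 24.5% of the 41473 regions in the merged set of both libraries, they covered 4584 kb, and 9524 gene names stood at their starts. They were set against 3183 regions at a single start with a CpG island (CpG island promoters), 1354 regions within 1000 bp of the starts of more than 1 gene (shared promoters) and 26779 regions with no start within that distance. The rule used annotation alone, and no signal value.

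The assay was ATAC-seq, which uses a transposase that inserts sequencing adapters where DNA is not covered by nucleosomes. The hos library came from mutant embryos and the other from siblings that the labels call wt, without saying whether heterozygotes were among them. Embryos of both groups were 96 h old and carried Tg(myl7:GFP), a reporter driven in cardiomyocytes, and the protocol names 60 dissected hearts. The hearts were pooled and no sorting is described, so endocardium, epicardium, blood and valve cells were in the sample. With 1 library per genotype no replicate error and no p-value could be had, and each difference below is one between these 2 libraries.

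A CpG island is a stretch of DNA rich in CpG dinucleotides that usually stays free of DNA methylation. In mammals the promoters of genes used in all cells mostly lie in such islands, and promoters without one are often those of tissue-restricted genes, with a TATA box or other core elements that place the start precisely. Fish genomes are poorer in GC at their promoters, and many unmethylated fish promoters miss the criteria by which islands are annotated. Promoter accessibility in either class is kept up in part by remodeling complexes such as SWI/SNF, of which Smarce1, the protein named in the series title, is a subunit.

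Over the whole set the hos library held 4748194 estimated tags and the sibling library 4091429, and the median log2 ratio of hos over sibling was 0.15 over all regions and 0.25 over the 20737 regions above a signal floor. That floor was the median over all regions of the larger of the 2 average signals, 39.3. Because the scaling between the libraries is not given in the sources used here, this common offset cannot be told apart from depth, and ratios of the island-free promoters are best read against it. Log2 ratios below are of average signal with a pseudocount of 1, folds are of the deposited signals without it, and intervals on a fold are exact binomial 95% intervals on estimated tags that cover counting error only. Counts of 2-fold differences took log2 ratios of at least 1 or at most -1, so a fold just past 2 could miss them through the pseudocount.

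Island-free promoters were open in both libraries at an intermediate level. Their median average signal was 51.1 in hos and 43.2 in sibling hearts, with quartiles of 35.3 and 80.9 in hos and of 31.1 and 67.3 in sibling hearts. CpG island promoters were stronger, at 68.2 in hos and 57.6 in sibling, and regions away from starts were weaker, at 31.1 in hos and 31.0 in sibling. The strongest point within an island-free promoter, its peak signal, had a median of 72 in hos and 61 in sibling, against 106 and 91 at CpG island promoters. The ratio of peak to average signal, a measure of how pointed a region is, was 1.41 in hos and 1.43 in sibling hearts, lower than the 1.53 and 1.54 of CpG island promoters. Island-free promoters were also shorter, with a median of 419 bp against 540 bp, and a longer region has more room to touch an annotated island, so length is not independent of the rule. The ratio of peak to average signal rose with length among island-free promoters. Its median was 1.21 in hos and 1.22 in sibling hearts at 200 to 329 bp. At 535 to 1707 bp it was 1.69 in hos and 1.72 in sibling hearts, above the 1.53 and 1.54 of CpG island promoters of all lengths. Whether the classes differ in this ratio at equal length was not tested. Island-free promoters took 33.1% of all tags in regions in the hos library and 31.9% in the sibling library.

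**Figure D1:**
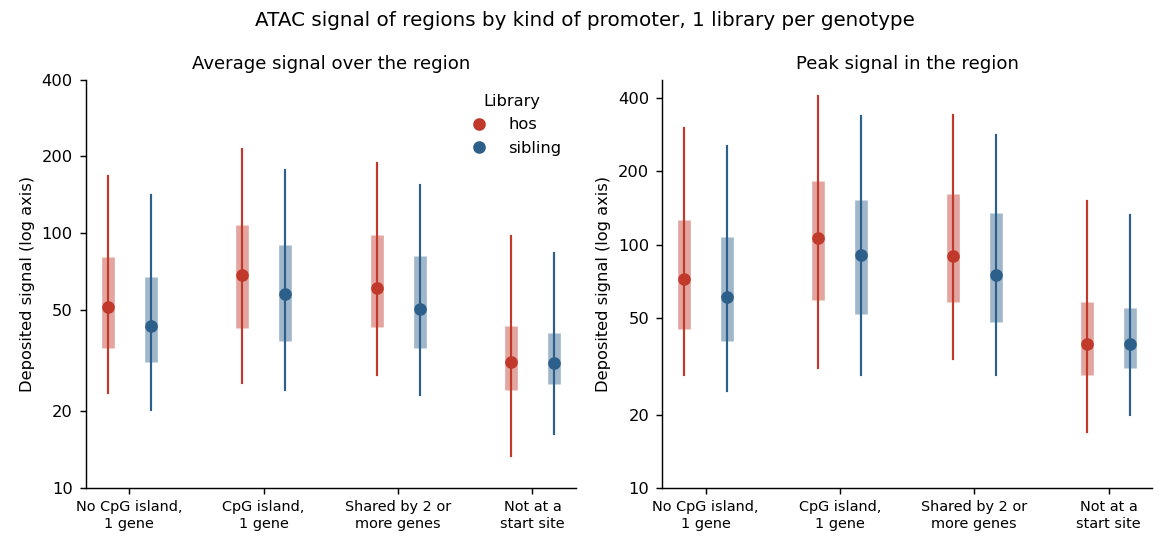
Deposited ATAC signal (log axis) of regions in 4 classes, hos in red and sibling in blue; points are medians, bars run between the quartiles and lines between the 5th and 95th percentiles. Island-free promoters of single genes sat between CpG island promoters and regions away from starts, with median average signals of 51.1 in hos and 43.2 in sibling hearts.

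Of all single-gene promoter regions in the set, 76.1% (Wilson 95% interval 75.4 to 76.9) lacked an island. The share differed among kinds of genes. For ribosomal proteins, which every cell uses, 67 of the promoter regions had no island and 4 had one, a share of 94.4% (86.4 to 97.8). It was 95.2% (84.2 to 98.7) for proteasome genes, 88.8% (80.0 to 94.0) for respiratory chain genes and 88% (70.04 to 95.8) for sarcomere and contraction genes. Lower shares were found for cardiac transcription factors and for a SWI/SNF list that also held the related remodeler gene smarca5. Each had 20 regions without and 13 with an island (60.6%, 43.7 to 75.3). For early response and stress genes the share was 64.5% (53.3 to 74.3). Genes used in all cells were thus well represented among the promoters without an annotated island in this fish, and the label was not confined to heart-restricted genes. The shares of heart genes lay on both sides of 76.1%, with sarcomere genes above it and cardiac transcription factors below it, each over few regions.

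Most island-free promoters held a called interval in both libraries: 8260 of 10157, or 81.3% (80.6 to 82.1), against 89.9% (88.8 to 90.9) of CpG island promoters. A call in hos alone was found at 1212 (11.9%), where 17.5% of all regions had such a call, and a call in the sibling alone at 685 (6.74%), against 18.9% of all regions. Promoters called in 1 library were weak and short and were not empty in the other. Those called in hos alone had a median average signal of 33.4 in hos and 21.3 in sibling hearts and a median length of 260 bp. Those called in the sibling alone had 21.3 in hos and 31.2 in sibling hearts, over 244 bp. Where both libraries had a call the medians were 58.5 in hos and 49.4 in sibling hearts, over 450 bp. The share with a call in both was 38.7% among the 2551 shortest island-free promoters (200 to 329 bp) and 99.0% among the 2539 longest (535 to 1707 bp).

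Above the floor lay 7224 of the 10157 island-free promoters (71.1%). Their median log2 ratio was 0.27 (95% order-statistic interval 0.26 to 0.28), with quartiles of 0.08 and 0.47, and 81.9% of them had the higher signal in hos, where 75.4% of all regions above the floor did. The median was 0.26 (0.25 to 0.28) at CpG island promoters and 0.31 (0.29 to 0.33) at shared promoters. Presence of an island therefore went with a difference of 0.01 in the median ratio, which was within these intervals. The spread was wider without an island: log2 ratios had a standard deviation of 0.34 there, of 0.29 at CpG island promoters and of 0.49 at regions away from starts. These classes also differed in signal and length, on which counting error depends. The spread was not compared at equal signal or length, so it cannot be credited to the lack of an island.

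At least 2-fold higher in hos were 120 of the 7224, or 1.66% (1.39 to 1.98), where 2.04% of all regions above the floor were. Island-free promoters had more signal than all regions, and the share fell with signal. Between the floor and the 75th percentile of the larger signal it was 2.79% (2.265 to 3.43), where 3.14% of all such regions were. From that percentile up it was 0.82% (0.588 to 1.145), where 0.935% of all such regions were. Within these ranges the intervals held the background. At least 2-fold lower in hos were 13, or 0.18% (0.11 to 0.31), where 1.13% of all regions were. With no floor the counts were 261 of 10157 higher, where 3.32% of all regions were, and 98 lower, where 4.83% of all regions were. At CpG island promoters 19 of 2621 (0.725%, 0.465 to 1.13) were 2-fold higher. The split depended on scaling: higher regions made up 90.2% of the 2-fold differences without centring, 60.8% (48 higher, 31 lower) with the median of all regions set to 0, and 69.0% (60 higher, 27 lower) after a lowess fit on mean signal was subtracted. Over all regions above the floor the background was 0.964% higher and 1.84% lower with the median set to 0. After the lowess fit it was 1.17% higher and 1.66% lower, so more regions were lower than higher there. The floor itself also entered: 5402 promoters passed it in both libraries, and of these 7 were 2-fold higher and 0 were 2-fold lower. Another 1450 passed through the hos library alone and held 113 of the 120, and 372 passed through the sibling alone and held the 13. Counts of 2-fold differences therefore describe promoters of modest signal, with medians of 50.3 in hos and 21.8 in sibling hearts for the 120 and of 20.3 in hos and 45.4 in sibling hearts for the 13. A hos call with no sibling call was present at 85 of the 120.

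Because signal differed between classes, regions were also compared within 10 equal groups of all regions by mean signal, with no floor. Island-free promoters had the higher median ratio than CpG island promoters in 9 of the 10 groups, with a median difference of 0.04. The exception was the strongest group, where the medians were 0.27 without and 0.29 with an island. Against shared promoters the island-free promoters had the higher median in 2 of the 10 groups only, with a median difference of -0.04. In the weakest group the island-free promoters had a median of 0.52 over 295 regions, CpG island promoters -0.29 over 56 and regions away from starts -0.69 over 3774. Of those 295 promoters, 293 were called in a single library, 170 in hos and 123 in the sibling, against 1381 in hos and 2367 in the sibling at regions away from starts, and the library with the call is the one with the higher signal as a rule. In the middle of the range, in the fifth group from the weak end, the medians were 0.19 over 890 island-free promoters, 0.14 over 164 CpG island promoters and 0.04 over 3003 regions away from starts.

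**Figure D2:**
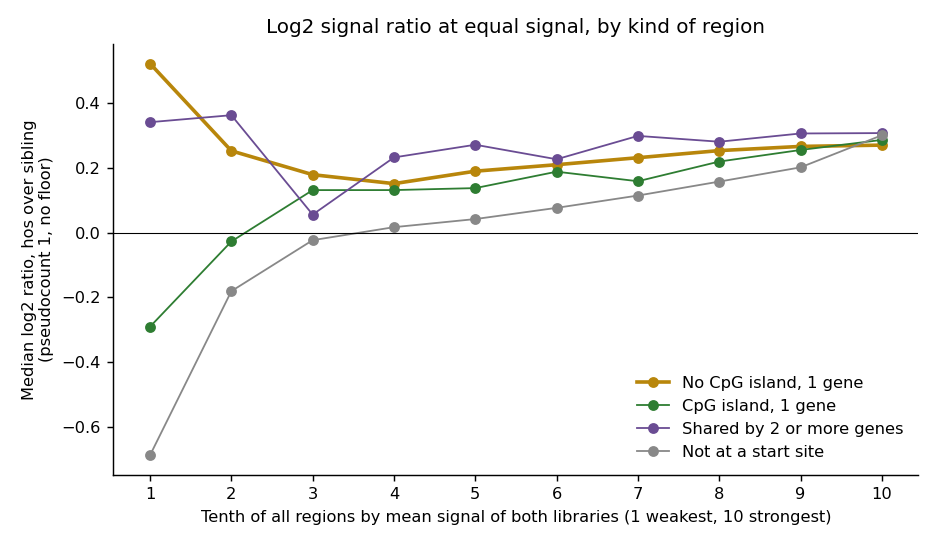
Median log2 ratio of average signal, hos over sibling, in each of 10 equal groups of all 41473 regions by mean signal, for 4 classes of region. The island-free line lies above the CpG island line in 9 of 10 groups and just below it in the strongest, at 0.27 and 0.29. It lies above the line of shared promoters in 2 of 10 groups.

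Signal and ratio varied with the position of the region relative to the start. The median distance of the region from the start was 88 bp, and 8092 regions (79.7%) lay within 250 bp. Signal was highest upstream of the start, and the position of the maximum differed between the libraries. Regions between 100 and 250 bp upstream had medians of 61.4 in hos and 47.9 in sibling hearts, those in the last 100 bp upstream 60.0 in hos and 50.9 in sibling hearts, and regions between 500 and 1000 bp past the start 44.2 in hos and 37.4 in sibling hearts. Among promoters above the floor, 34 of the 727 that lay over 500 bp from the start were at least 2-fold higher in hos, a share of 4.68% (3.37 to 6.46), against 75 of the 5905 within 250 bp, or 1.27% (1.02 to 1.59). Farther regions were weaker, so the shares were also taken within a range of signal. Between the floor and the 75th percentile of the larger signal (60.4) they were 6.88% (4.74 to 9.89) over 500 bp away and 2.24% (1.72 to 2.91) within 250 bp, where 3.14% of all regions of that signal were 2-fold higher. At or above the 75th percentile they were 2.29% (1.17 to 4.46) and 0.602% (0.394 to 0.918), with 0.935% of all such regions. These shares were not taken at equal length. Far regions were also shorter, with a median of 343 bp over 500 bp away against 426 bp within 250 bp. Above the floor, 54 of 835 island-free promoters of 200 to 329 bp were at least 2-fold higher in hos. Of those of 535 to 1707 bp, 11 of 2309 were. Whether the share differs with distance apart from length was not tested. Median ratios of the far and the near promoters were 0.32 and 0.26. The far regions included 3 that were 2-fold lower in hos. Near the 1000 bp limit, 207 regions over 900 bp away had a median of 45 in hos and 40 in sibling hearts, and 150 island-free regions just beyond it, up to 1100 bp away, had 42.7 in hos and 38.9 in sibling hearts.

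**Figure D3:**
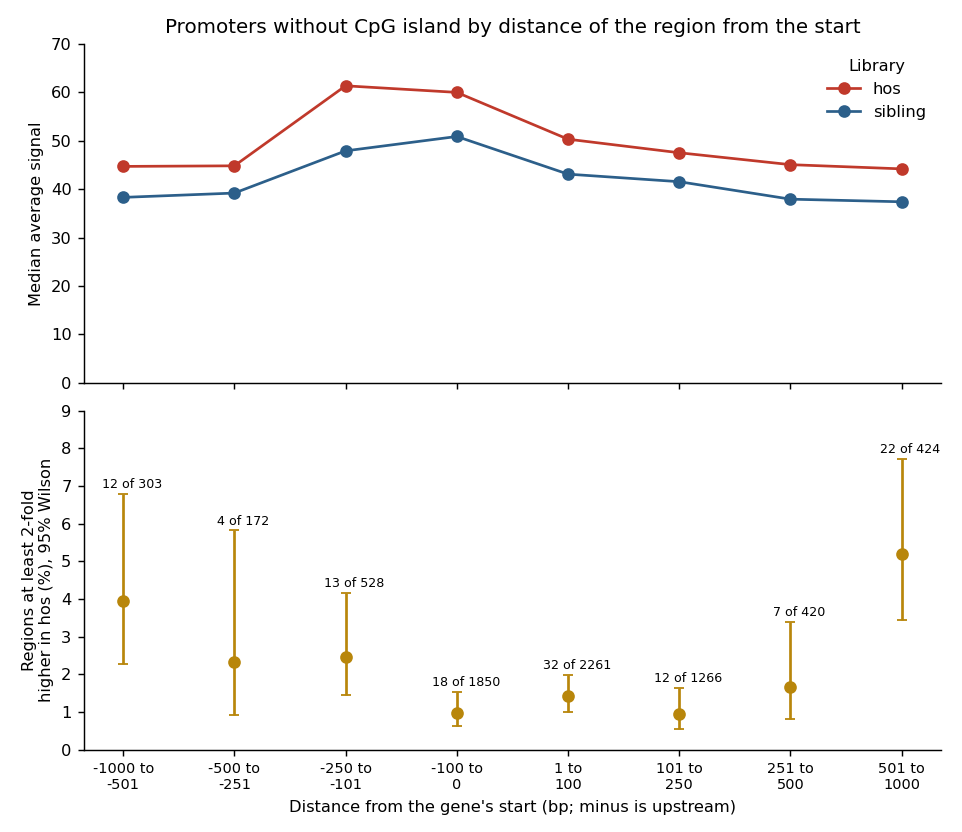
Top: median average signal of island-free promoters in hos (red) and sibling (blue) hearts by distance of the region from the gene's start. Bottom: share of those above the floor that were at least 2-fold higher in hos, with Wilson 95% intervals and counts, with 12 of 1266 between 100 and 250 bp past the start and 18 of 1850 in the last 100 bp upstream at the low end, and 22 of 424 beyond 500 bp past the start at the high end.

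Some genes had more than 1 such region. For 323 genes the nearest and the next region both lay above the floor, with medians of 80.8 in hos and 63.7 in sibling hearts at the nearer region and of 57.9 in hos and 46.1 in sibling hearts at the farther. Median log2 ratios were 0.33 at the nearer and 0.35 at the farther region, and the farther had the higher ratio in 176 of the 323. In 16 of these genes the farther region alone was at least 2-fold higher in hos, in 2 the nearer alone, and in 1 both. Above the floor 2.04% of all regions were 2-fold higher, and 1.66% of island-free promoters. Of island-free promoters over 500 bp from the start 4.68% were. The farther regions were also the weaker ones. The regions of a gene differed by 1 or more on the log2 scale in 11 genes, with the nearer region higher in 6 and the farther in 5. Median ratios were thus alike at both positions, while 2-fold higher regions were mostly the farther ones. Whether these counts differ at equal signal or length was not tested. The genes named here were picked after their values were seen. At fanci, a gene of the Fanconi anemia DNA repair pathway, the region 95 bp upstream had 119 in hos and 117 in sibling hearts (log2 ratio 0.03), and the region 713 bp upstream had 53.2 in hos and 22 in sibling hearts (1.24). The p53-induced gene tp53inp1 had 176 in hos and 129 in sibling hearts at 114 bp upstream (0.44) but 44.2 in hos and 15.5 in sibling hearts at 718 bp inside the gene (1.45). For rps20, a protein of the small ribosomal subunit, the values were 130 in hos and 116 in sibling hearts at 31 bp upstream (0.17), and 61.8 in hos and 29.2 in sibling hearts at 398 bp inside (1.05). The nearer region had the higher ratio at slc43a2a, an amino acid transporter gene, where the near region had 88.9 in hos and 36.1 in sibling hearts (1.28) and the region 683 bp upstream 70.4 in hos and 64.2 in sibling hearts (0.13). ywhaz, for a 14-3-3 adaptor protein, had 49.1 in hos and 24.9 in sibling hearts at 565 bp (0.96), against 38.6 in hos and 49.1 in sibling hearts at 820 bp (-0.34). The interval of the latter (0.785-fold, 0.503 to 1.237) included 1. tox4b, of the TOX family of HMG-box proteins, had 66.8 in hos and 36.0 in sibling hearts at 144 bp upstream (0.88), against 41.7 in hos and 47 in sibling hearts at 397 bp inside (-0.17). At nt5c1aa, a cytosolic nucleotidase gene, the regions went opposite ways, with 24.4 in hos and 42.2 in sibling hearts near the start (-0.77) and 48.3 in hos and 31.5 in sibling hearts farther out (0.60).

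Strong island-free promoters were those whose larger signal was at or above the 75th percentile (60.4). Among those next to a gene with its own symbol, gtf2f1 had the highest ratio. Its region (Gene ID 325832, chromosome 3, 33941470 to 33942126 in danRer11) lay 479 bp upstream of the gene for a subunit of the general transcription factor TFIIF. It had 96.05 in hos and 25.05 in sibling hearts, a fold of 3.83 (2.97 to 5.05), and 1.67 remained on the log2 scale after lowess centring. The start of pdx1, the transcription factor of pancreas and duodenum (chromosome 24, 21683998 to 21684363), had 63.1 in hos and 20.8 in sibling hearts (3.03-fold, 2.04 to 4.61) and no sibling call. At jade1, a scaffold of a histone acetyltransferase complex, a region 844 bp inside the gene had 78.7 in hos and 28.7 in sibling hearts (2.74-fold, 1.79 to 4.46). psmd10, a chaperone of proteasome assembly, had 2 such regions, with 69.6 in hos and 25.5 in sibling hearts at 562 bp (2.73-fold, 1.94 to 3.85) and 71.6 in hos and 37.8 in sibling hearts at 27 bp (1.89-fold, 1.40 to 2.59). The Notch ligand gene dll4 of endothelium had 60.6 in hos and 22.7 in sibling hearts at 152 bp upstream (2.67-fold, 1.90 to 3.77). Next in order were slc43a2a, then ribc1, of the ciliary axoneme, with 92.1 in hos and 39.5 in sibling hearts, sertad2b, a transcriptional coregulator, with 95.9 in hos and 42.6 in sibling hearts, and 2 tRNA genes described below. After lowess centring the log2 ratios of these 10 regions lay between 0.88 and 1.67. The regions were picked by their ratio, so values above 0 were fixed by that choice. All 10 passed the 75th percentile through hos alone, with 20.8 to 54.0 in sibling hearts, so they were not strong in both libraries.

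Before centring, the lowest ratios among strong island-free promoters were smaller in size. atp6ap1b, for an accessory subunit of the vacuolar proton pump (Gene ID 195824, chromosome 23, 26079276 to 26079684), had 39.8 in hos and 80.5 in sibling hearts, a fold of 0.495 (0.370 to 0.662). fuk, which makes fucokinase, had 32.6 in hos and 63.2 in sibling hearts (0.516, 0.369 to 0.706). inpp5l had 44.7 in hos and 72.3 in sibling hearts (0.618, 0.456 to 0.840), and inpp5e, for a phosphoinositide phosphatase of the primary cilium, 52.2 in hos and 77.3 in sibling hearts (0.676, 0.520 to 0.874). Another proton pump gene, atp6v1d, had 60.4 in hos and 89.9 in sibling hearts. The region 846 bp inside fosb, which encodes a subunit of the transcription factor AP-1, had 96.9 in hos and 143 in sibling hearts (0.677, 0.543 to 0.839). acot11a, sssca1, lyplal1 and sgk494b completed the 10, with 41.6 to 53.9 in hos and 62.4 to 80.4 in sibling hearts. Every one of the 10 had a call in both libraries, and before centring none reached a log2 ratio of -1. The region at atp6ap1b was just short of it at -0.997. After lowess centring atp6ap1b lay at -1.22 and fuk at -1.12, past 2-fold. With the median of all regions set to 0 they lay at -1.15 and -1.09.

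**Figure D4:**
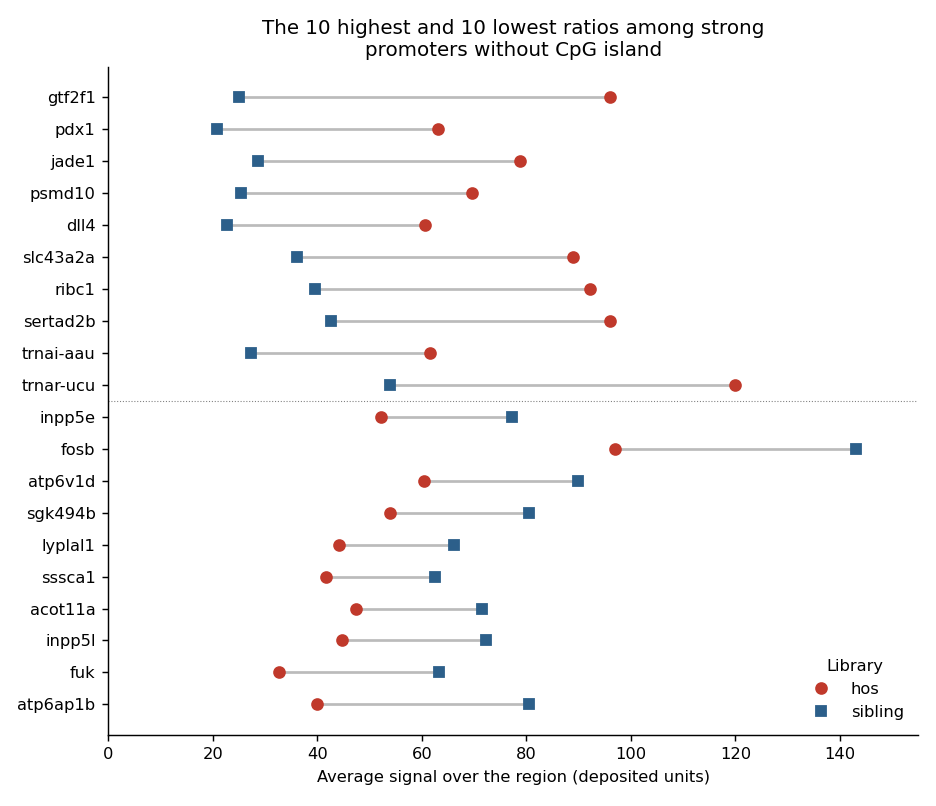
Average signal in hos (red circles) and sibling (blue squares) hearts for the 10 highest and the 10 lowest log2 ratios among strong island-free promoters with a gene symbol, with ratios falling from top to bottom. gtf2f1 is at the top with 96.05 in hos and 25.05 in sibling hearts, and atp6ap1b at the bottom with 39.8 in hos and 80.5 in sibling hearts.

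The 13 regions at least 2-fold lower in hos were weaker, and were picked out here after their values were seen. The lowest was at the placeholder-named gene si:rp71-80o10.4, with 4.0 in hos and 41.3 in sibling hearts (fold 0.0969, 0.0254 to 0.269). clrn3, of the clarin membrane protein family, had 8.23 in hos and 46.7 in sibling hearts at 54 bp upstream (0.176, 0.0964 to 0.301). Then came LOC110438373 with 10.6 in hos and 41.2 in sibling hearts, and shroom3, which drives apical constriction of epithelial cells, with 22.3 in hos and 55.1 in sibling hearts (0.404, 0.267 to 0.602). The cytochrome P450 gene cyp2x9 had 23.9 in hos and 58.0 in sibling hearts, the nectin gene pvrl3a 17.9 in hos and 42.9 in sibling hearts, and atp1a1b, for a catalytic subunit of the sodium-potassium pump, 19.0 in hos and 45.4 in sibling hearts. The other 6, at lrrc4.1, kif25, soul5, si:dkey-32e23.4, zgc:194336 and zgc:165481, had 18.8 to 28.6 in hos and 43.43 to 58.8 in sibling hearts. Calls were missing in hos at 10 of the 13. Lowess centring left the 13 at least 2-fold lower, but it moved most of their ratios further down. At shroom3 the log2 ratio went from -1.27 to -1.40. For regions picked at or below -1 this outcome was therefore no check.

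Heart muscle genes were among the island-free promoters with the larger ratios, as were lists of other cells. Median log2 ratios were 0.48 over 11 neural and neural crest regions, 0.44 over 14 epicardium, fibroblast and mural regions and 0.44 over 11 collagen and laminin regions. The list of sarcomere and contraction genes had 22 such promoters, of which 12 lay above the floor. Of the 12, 11 were higher in hos, where 81.9% of all island-free promoters above the floor were. A log2 ratio of at least 1 was found at 2. The median of the 12 was 0.43, against 0.27 for all island-free promoters (0.30 and 0.04 after lowess centring). Promoters can pass the floor through hos alone, and island-free promoters that did had a median of 0.55, against 0.24 for those passing in both libraries. Of the genes below, tnnt2a, tpm4a, acta1b, popdc2 and bves passed through hos alone. With no floor the median was 0.57 over the 22, against 0.25 for all island-free promoters. More or fewer cells of a type and more or less open chromatin per cell cannot be told apart in pooled hearts. tnnt2a, cardiac troponin T, had 51.4 in hos and 20 in sibling hearts (2.57-fold, 1.82 to 3.76) at 53 bp upstream. tpm4a, a tropomyosin of the heart, had 56.1 in hos and 25.6 in sibling hearts (2.196-fold, 1.58 to 3.13), and acta1b, an alpha actin, 58.5 in hos and 28.8 in sibling hearts (2.03-fold, 1.44 to 2.85), a log2 ratio of 0.998 that missed the limit through the pseudocount. Of the genes for cyclic AMP binding proteins of the muscle cell membrane, popdc2 had 52.4 in hos and 29.9 in sibling hearts, and bves had 55 in hos and 32 in sibling hearts. The region of myl7, whose promoter drives the reporter in both groups, lay 276 bp upstream. It had 181 in hos and 143 in sibling hearts, a log2 ratio of 0.34 close to the common offset. Whether reads from the reporter's copy of this promoter added to the signal was not tested. tmod4, a thin filament cap better known from skeletal muscle, had 44.4 in hos and 54.4 in sibling hearts. Its interval (0.816-fold, 0.602 to 1.098) included 1. Below the floor vmhcl, a ventricular myosin heavy chain gene, had 33.5 in hos and 12.1 in sibling hearts. Of 9 calcium handling, channel and natriuretic peptide promoters above the floor 8 were higher in hos, with a median of 0.30. With no floor the median was 0.27 over 13, and nppa passed the floor through hos alone. In that list nppa, atrial natriuretic peptide, had 48.7 in hos and 17 in sibling hearts (2.86-fold, 1.73 to 4.77), and atp2a2a, the calcium pump of the sarcoplasmic reticulum, had 284 in hos and 249 in sibling hearts.

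Cardiac transcription factors had 14 island-free promoters above the floor. All 14 were higher in hos, where 81.9% of all island-free promoters above the floor were, and their median was 0.33. After lowess centring the median of the 14 was 0.07 and 8 of 14 were above 0. With no floor the median was 0.26 over 20 regions, against 0.25 for all island-free promoters. nkx2.5 and meis1a passed the floor through hos alone. The 5 highest log2 ratios ran between 0.87 and 1.28 and the other 9 between 0.03 and 0.37. The 5 were nkx2.5, with 43.3 in hos and 17.3 in sibling hearts (2.504-fold, 1.39 to 4.38), gata5 with 108 in hos and 53.2 in sibling hearts (2.03-fold, 1.63 to 2.54), tbx20 with 85.5 in hos and 43.2 in sibling hearts (1.98-fold, 1.57 to 2.52), hand2 with 75 in hos and 40.5 in sibling hearts, and meis1a with 55.3 in hos and 29.7 in sibling hearts. Other factors of the early heart lay lower: isl1, of the second heart field, had 45.3 in hos and 41 in sibling hearts (1.105-fold, 0.778 to 1.594), and gata6 had 102 in hos and 90.5 in sibling hearts. tbx3a, of the conduction system, had 137 in hos and 119 in sibling hearts.

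Genes of the other cells of the heart differed among themselves. Of 9 endocardium and endothelium promoters above the floor 8 had a ratio above 0, beside 81.9% of all island-free promoters above the floor. Their median was 0.14 (-0.11 after lowess centring). dll4 and cdh5, the endothelial cadherin, stood at one end, cdh5 with 40.9 in hos and 22.4 in sibling hearts. nfatc1, of the endocardium and valves, had 81.5 in hos and 81.4 in sibling hearts, and tal1 had 40.9 in hos and 41.4 in sibling hearts. The epicardium, fibroblast and mural list had a median of 0.44 over 14 regions, 12 of them above 0. Both col1a2 regions, at the gene of a fibrillar collagen chain, were among its highest, with 84.6 in hos and 48.4 in sibling hearts at 20 bp and 52.2 in hos and 26.8 in sibling hearts at 815 bp. postnb, a periostin gene, had 44.6 in hos and 60.2 in sibling hearts (0.741-fold, 0.529 to 1.021).

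Markers of tissues other than the heart were measured too. Epidermis, gut and liver genes had 32 island-free promoters from 58 listed genes found in the deposited gene table. Of the 21 above the floor 11 had a ratio above 0, where 81.9% of all island-free promoters above the floor did. Their median was 0.01 (-0.24 after lowess centring), the lowest of the lists plotted here. Over the 32, median signals were 42.1 in hos and 43.8 in sibling hearts. The summed average signal over the 32 was 1625 in hos and 1472 in sibling hearts. gata5, pdx1 and krt8, a keratin of simple epithelia with 156 in hos and 114 in sibling hearts, held the largest differences in that sum. The keratin gene krt92 had 35.7 in hos and 55.7 in sibling hearts (0.641-fold, 0.477 to 0.854). At apoa4b.1, an apolipoprotein of gut and liver, the signals were 37.7 in hos and 51.1 in sibling hearts (0.737-fold, 0.502 to 1.091). pdx1 and gata5, which is also on the cardiac list, had the highest ratios above the floor. The start of the claudin gene cldna, below the floor, had 7 in hos and 23.7 in sibling hearts. Blood and immune genes had 4 promoters above the floor, 2 of them above 0. The summed signal of their 9 island-free promoters was 377 in hos and 362 in sibling hearts. Their medians went the other way, with 31.6 in hos and 37 in sibling hearts. In that sum runx3 alone had 90.1 in hos and 56.3 in sibling hearts. The skeletal muscle list had 4 above the floor, with a summed signal over 13 of 472 in hos and 465 in sibling hearts. Its medians were 28.4 in hos and 28.7 in sibling hearts, and tmem38a alone had 60 in hos and 26.1 in sibling hearts. The neural and neural crest list had 11, of which 7 were above 0. Its median of 0.48 (0.30 after lowess centring) was the highest of the lists plotted here, and its sums over 18 were 966 in hos and 790 in sibling hearts. The part of such cells in the ratios was not tested.

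The series title names Smarce1 and Jak/Stat3 signaling, in which cytokine receptors such as gp130 activate Jak kinases that phosphorylate Stat factors, and Socs proteins feed back on the kinases. smarce1 itself had an island-free promoter with 106 in hos and 87.3 in sibling hearts (1.22-fold, 0.995 to 1.495), a log2 ratio of 0.28 close to the median of the class, which says nothing about the lesion in the gene. The SWI/SNF list, which also held smarca5, had 20 island-free promoters. Of these 19 lay above the floor, with a median of 0.36. Above 0 were 18 of the 19, beside 81.9% of all island-free promoters above the floor. arid1aa, for a DNA-binding subunit, had 230 in hos and 146 in sibling hearts at 941 bp upstream, and smarcd2 57.2 in hos and 33.6 in sibling hearts. smarca5, of the related ISWI family, had 44.6 in hos and 51.3 in sibling hearts (0.869-fold, 0.655 to 1.147). Jak/Stat genes had 34 promoters above the floor, with a median of 0.31 (0.06 after lowess centring). Of these 32 had a ratio above 0, beside the same 81.9%. Past 2-fold were 0, where 1.66% of all island-free promoters above the floor were higher and 0.18% lower. Over so few regions a count of 0 was near that background. il6st, the gp130 receptor, had 248 in hos and 232 in sibling hearts (1.07-fold, 0.956 to 1.199). Its kinase gene jak1 had 101.1 in hos and 98.5 in sibling hearts at the start, while a region 873 bp upstream had 107 in hos and 59.11 in sibling hearts (1.81-fold, 1.37 to 2.39). The feedback gene socs3a had 200 in hos and 132 in sibling hearts (1.51-fold, 1.32 to 1.75), and its paralog socs3b 72.2 in hos and 62.4 in sibling hearts. jak2b had 42.8 in hos and 46.6 in sibling hearts (0.919-fold, 0.694 to 1.2). No island-free region at a single start was found for jak2a or stat3.

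Cell cycle and replication genes had a lower median, 0.20 over 51 promoters (-0.02 after lowess centring). Of the 51, 41 were above 0, beside 81.9% of all island-free promoters above the floor. Several genes of DNA replication and centriole copying were lower in hos: plk4, the kinase that starts centriole duplication, had 43.3 in hos and 63.5 in sibling hearts (0.681-fold, 0.515 to 0.885), mcm2, a subunit of the replicative helicase, had 85.9 in hos and 111 in sibling hearts (0.773, 0.632 to 0.945), and prim1, of the primase, had 35.6 in hos and 46.4 in sibling hearts. Higher in hos were rfc1, the large subunit of the clamp loader, with 48.6 in hos and 17.8 in sibling hearts (2.73-fold, 1.76 to 4.40), ccne2, an S phase cyclin, with 54.4 in hos and 33.1 in sibling hearts, and ccnd1, a G1 cyclin, with 160 in hos and 104 in sibling hearts (1.54-fold, 1.33 to 1.79). These genes were picked as the 3 lowest and the 3 highest of the 51 promoters. Extremes of a list can leave such intervals without a real difference, and at prim1 the interval (0.769-fold, 0.539 to 1.12) included 1. Differences in both directions were therefore not tested for the list.

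Several lists held genes that every cell uses. Ribosomal protein promoters were strong, with medians of 94.0 in hos and 76.0 in sibling hearts. Above the floor 62 of 66 had a ratio above 0, where 81.9% of all island-free promoters did, and their median was 0.34. Their range ran from rpl35, with 63.8 in hos and 72.7 in sibling hearts (0.877-fold, 0.708 to 1.082), to rps20. Housekeeping genes had a median of 0.39 over 43 regions, and gapdh, of glycolysis, had 59.9 in hos and 26.8 in sibling hearts (2.24-fold, 1.49 to 3.36) with no sibling call. Proteasome genes had a median of 0.38 over 35, mitochondrial ribosome genes 0.35 over 24, respiratory chain genes 0.29 over 61 and splicing factor genes 0.22 over 51. Among respiratory chain genes the complex I subunits ndufs5, with 94.2 in hos and 49.6 in sibling hearts (1.90-fold, 1.52 to 2.39), and ndufs4, with 26.7 in hos and 42.9 in sibling hearts (0.622-fold, 0.398 to 0.970), stood at opposite ends. After lowess centring the medians were 0.09 for ribosomal proteins, 0.12 for housekeeping, 0.16 for proteasome, 0.14 for mitochondrial ribosome, 0.05 for respiratory chain and -0.02 for splicing factor genes. Early response and stress genes had a median of 0.32 over 47 regions, of which 42 were above 0, beside the same 81.9%, and 0 passed 2-fold. The highest was a short region inside fosl2, with 58.0 in hos and 30.0 in sibling hearts, while fosb was the lowest. Circadian clock genes had 28 of 32 above 0, beside 81.9%, a median of 0.23 and 0 past 2-fold. Of all island-free promoters above the floor 1.66% were 2-fold higher and 0.18% lower. Over so few regions both counts of 0 were near that background.

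**Figure D5:**
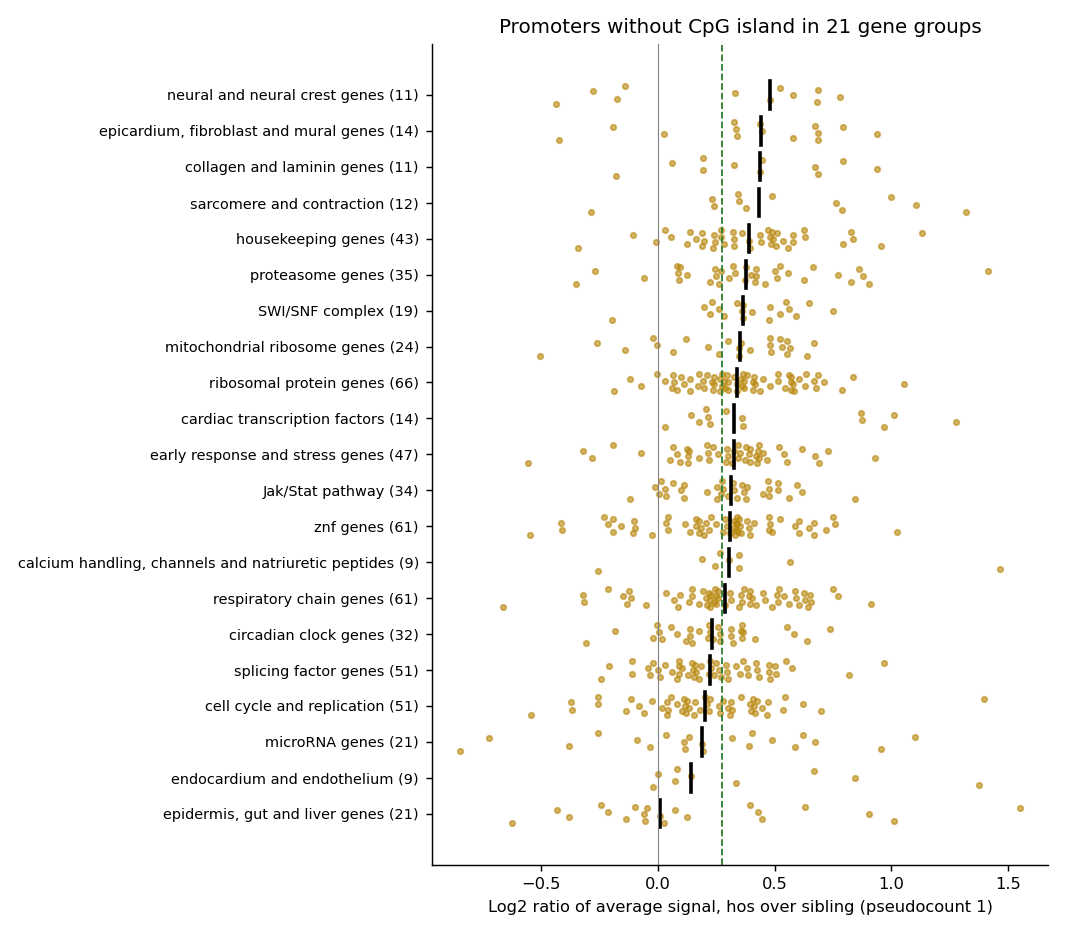
Log2 ratio of average signal, hos over sibling, at each island-free promoter above the floor (points) in 21 gene groups, with the number of regions in parentheses; black bars are group medians and the dashed line is the median of all 7224, 0.27. Medians run from 0.01 for epidermis, gut and liver genes to 0.48 for neural and neural crest genes, and points of most groups overlap widely.

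RNA genes were a small share of the island-free promoters. Of the regions, 9588 lay at protein-coding genes, 135 at long noncoding RNA genes, 100 at tRNA genes by name and 34 at microRNA genes, by Gene ID in the RefSeq tables, and 272 were not matched. tRNA genes are read by RNA polymerase III from promoter elements inside the gene. Their 81 regions above the floor had a median of 0.42 (0.21 after lowess centring). Of these 72 were above 0, beside 81.9% of all island-free promoters above the floor. At least 2-fold higher were 2, at trnar-ucu and trnai-aau. The trnar-ucu region had 120 in hos and 54.0 in sibling hearts (2.22-fold, 1.78 to 2.81). The trnai-aau region had 61.5 in hos and 27.3 in sibling hearts (2.25-fold, 1.40 to 3.87). The names stand for 40 kinds of tRNA gene in several copies, and reads from near-identical copies may not be placed uniquely. Long noncoding RNA promoters had a median of 0.33 over 87 regions. Regions at the annotated starts of microRNA genes had 0.19 over 22 and a wide range. The one near mirlet7j had 25.7 in hos and 47.1 in sibling hearts. One 699 bp past the start of mir199-3a, downstream of the gene, had 29.6 in hos and 49.4 in sibling hearts. The one near mir21-1 had 116 in hos and 72.3 in sibling hearts (1.60-fold, 1.28 to 2.02). Whether such regions are promoters of the microRNA transcripts was not tested.

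The strongest island-free promoters differed little between the libraries. LOC110439801 had the highest sibling signal, with 473 in hos and 504 in sibling hearts, followed by mxd1, a partner of Max that opposes Myc, with 545 in hos and 458 in sibling hearts, and eif2ak3, the PERK kinase of the endoplasmic reticulum stress response, with 524 in hos and 423 in sibling hearts. Log2 ratios of the 8 strongest ran between -0.09 and 0.31, with hsd17b12a, si:ch73-1a9.3, c19h1orf109, myh14 and arid4b as the others. The 4 longest regions were at gna11b (1707 bp), prr12b (1560 bp), gadd45ba (1550 bp) and hmgb1a (1523 bp). hmgb1a, a chromatin architectural protein gene, had 269 in hos and 181 in sibling hearts (1.49-fold, 1.38 to 1.60), and gna11b, for a G protein alpha subunit, 120 in hos and 105 in sibling hearts (1.14-fold, 1.04 to 1.26). Across chromosomes the median ratio of island-free promoters lay between 0.24 on chromosome 19 (287 regions above the floor) and 0.32 on chromosome 23 (288 regions).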

How the data were processed

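Both libraries were ATAC-seq of dissected 96 h hearts, made by a commercial service. The submitters' processing notes name MACS2 2.1.0 and danRer11. The aligner, duplicate handling, any read shift and any scaling between libraries: not given in the sources used here. Intervals of both libraries were merged by the authors, who deposited for every region the average signal, peak signal and call of each library, with annotated genes, distances to their starts and a CpG island count. The definition of an island is not stated. The authors' deposited log2 ratio and shrunken log2 fold change of the libraries were not used. The authors' gene table, with the mean peak signal of a gene's regions, served for an alternative. Coordinates are as deposited, and 0 per-library columns lacked a sample.

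Groups came from the genotype labels. From the signals log2((hos + 1)/(sibling + 1)) was computed. The floor was the median of the larger average signal (39.3), and counts used a 2-fold limit. Estimated tags are signal times length over 224, the divisor that the deposited tag counts use. Intervals cover counting error only and treat regions and reads as independent. Shares have Wilson intervals, and medians order-statistic intervals. Steps were tested on simulated data. Alternatives were pseudocounts of 0.1 and 5, median and lowess centring (span 0.2), peak signal, other floors, a 1.5-fold limit, starts within 500 bp, regions called in both libraries and 1 region per gene.

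Named genes were the 10 highest and 10 lowest ratios among regions from the 75th percentile of the larger signal up (60.4) with no placeholder name. Also named were the 8 regions with the highest sibling signal and the 4 longest regions. Up to 3 at either end of each of 26 gene lists were added, and smarce1 with Jak/Stat genes. Genes with several regions, the 13 lower regions, and the list members myl7, vmhcl, bves, popdc2, hand2, meis1a, tbx3a, cldna and krt8 were picked with their values known. The regions, lists and limits were chosen with earlier results of these data known. Among the members 7 gene names read as calendar dates and are not named. Promoter sequences and motifs were not analysed here, since no sequence of the build was used. Of the members, 9885 were given a gene type, through RefSeq tables or a tRNA name. Software: matplotlib 3.10.9, statsmodels 0.14.6, scipy 1.17.1, pandas 2.3.3 and numpy 2.4.6 under Python 3.11.15.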

Additional observations from a re-analysis of the deposited data

How the results depend on the processing

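No paired analysis was possible because each genotype has 1 library, and no library could be left out. The planned search for promoter motifs was not run, since no sequence of the build was used. Of island-free promoters above the floor 120 passed 2-fold upward and 13 downward in hos. These counts were 63 and 8 with a pseudocount of 5, 48 and 31 with the median of all regions set to 0, 60 and 27 after lowess centring, 261 and 98 with no floor, 34 and 0 with a floor at the 75th percentile, 35 and 3 over regions called in both libraries, and 1048 and 98 at 1.5-fold. With the floor on the mean of both signals, an alternative chosen after seeing the data, they were 47 and 2. A pseudocount of 0.1, peak signal, starts within 500 bp and 1 region per gene kept both counts within 1.5 times. With no floor the direction of the balance at all regions differed from that at island-free promoters (3.32% higher and 4.83% lower at all regions). Over all regions the shares were 0.964% higher and 1.84% lower with the median set to 0. They were 1.17% and 1.66% after lowess centring, and 0.935% and 0.164% from the 75th percentile up. For the other alternatives no share over all regions was taken, so those counts have no background.

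The median log2 ratio of 0.27 became 0.26 with a pseudocount of 5, 0.12 with the median of all regions set to 0, 0.043 after lowess centring, 0.25 with peak signal, 0.25 with no floor, 0.29 with the higher floor, 0.26 over regions called in both libraries, and 0.26 with the floor on the mean. It was 0.20 in the authors' gene table, also added after seeing the data. Its difference of 0.01 from CpG island promoters became 0.041 within 10 equal groups by signal and stayed within the intervals otherwise. The difference of -0.04 from shared promoters moved under no alternative by more than its interval. The shares called in both libraries, in hos alone and in the sibling alone were 94.1%, 4.32% and 1.55% above the floor, and 83.6%, 10.4% and 6.002% with starts within 500 bp. After lowess centring 8 of 26 list medians changed sign, and 23 of 183 named regions did. None of these regions was past 2-fold, where the starting value left little room for a change of sign. Low signal limits the single regions: most 2-fold differences rest on a signal below the floor in the lower library.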

Other observations

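Some of the 120 island-free promoters at least 2-fold higher in hos belonged to related or neighbouring genes, which were picked out after their values were seen. Both copies of slc43a2, which encodes a transporter of large neutral amino acids, were among them, slc43a2a with 88.9 in hos and 36.1 in sibling hearts and slc43a2b with 45.4 in hos and 19.6 in sibling hearts (2.31-fold, 1.42 to 4.01). Both copies of caprin1, an RNA-binding protein of stress granules, were too. caprin1a had 39.8 in hos and 17.2 in sibling hearts at 116 bp inside the gene, and caprin1b had 40.1 in hos and 13.6 in sibling hearts at 456 bp upstream, while the start of caprin1b, 17 bp upstream, had 65.9 in hos and 50.4 in sibling hearts.

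On chromosome 3 of danRer11, 3 regions of the 120 lay between 60320027 and 60405562. The 2 at si:ch211-214b16.2 had 107 in hos and 31.8 in sibling hearts (3.35-fold, 2.57 to 4.48) and 62.4 in hos and 18.5 in sibling hearts. The third, at si:ch211-214b16.3, had 110 in hos and 37.6 in sibling hearts (2.94-fold, 2.27 to 3.83). Genes with placeholder names of one series can be near copies, and the placement of reads among copies was not tested.

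For 39 genes with a 2-fold higher member and at least 1 region above the floor beyond 1000 bp, the median of those other regions was also 2-fold higher at 1. Of single regions above the floor, 2.04% of all and 2.74% of those away from starts were 2-fold higher. The count of 1 among 39 was thus near the background.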
